A study of Mus musculus with 26 samples.

Results

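The transcriptional response to 15 min of insulin was measured in cells that carry the ∆CT receptor in place of their own, a human insulin receptor that lacks the last 79 residues of its intracellular tail but keeps the tyrosine kinase domain. The libraries were chosen by their labels: 2 from ∆CT cells given 100 nM insulin and 3 from the same line left untreated (basal), 5 of the 26 RNA sequencing libraries of the series. All 15402 genes with a CPM (count scaled to the library total) above 0.5 in at least 4 of the 26 libraries were tested, out of 52962 in the table. The parent cells were brown preadipocytes of newborn mice with floxed *Insr* and *Igf1r* alleles, immortalized with SV40 T-antigen, and both genes were inactivated in culture with adenoviral Cre to give DKO cells. DKO cells were then transduced with pBabe retrovirus under hygromycin selection to carry human IR (B isoform), the kinase-dead K1030R receptor, ∆CT, or JMO, a receptor that ends 36 residues into the juxtamembrane region. Every group was held without serum for 6 h, and the IR, K1030R, and JMO lines have 3 basal and 3 insulin libraries each, while DKO cells were sequenced in the basal state alone. Each receptor was studied in 1 line, and the labels do not say that libraries of a group came from separate cultures, so p-values measure only the spread between these libraries.

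Insulin binding activates the receptor's tyrosine kinase, which phosphorylates itself and docking proteins such as IRS and Shc, and these feed the PI3K-AKT and the Ras-ERK cascades. Within minutes ERK and its kinases act on transcription factors already present in the nucleus, such as the ternary complex factors that sit with SRF on CArG boxes and CREB on cAMP response elements, and so start a wave of immediate early genes that needs no new protein. That wave encodes transcription factors of the FOS, JUN, EGR, and NR4A families together with phosphatases and RNA-binding proteins that switch the signal off. The C-terminal tail removed in ∆CT carries tyrosine phosphorylation sites outside the kinase domain, and the comparison asks which early genes insulin still moves without it.

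Totals of the ∆CT libraries ran from 19096794 to 22685780 counts, within the range of all 26 (17228982 to 24694828), and mitochondrial genes took 3.32 to 3.56% of them. Read counts in the pair of insulin libraries differed by more than sampling noise (chi-square per degree of freedom 12.66, against 2.84 to 7.20 between basal libraries), so none was a copy of another. *Insr* stood at 23.8 ± 1.32 CPM (SD, n = 3) in DKO and 78.4 ± 3.61 CPM in basal ∆CT libraries, all counted on mouse transcripts although the added receptor is human, and which of these reads come from the added receptor was not tested. Of 13 preadipocyte and fibroblast markers, 9 exceeded 1 CPM, among them *Col1a1*, *Pdgfra*, and *Pparg*, but *Ebf2*, a marker of brown preadipocytes, reached at most 0.258 CPM, *Zfp423* and *Prdm16* were at 0 in 4 of the 5 libraries, and the brown fat uncoupling protein *Ucp1* was at 0 in all. Of the 8 mature adipocyte markers *Fabp4* alone passed 1 CPM, and in 1 library. The summed level of 6 leukocyte markers was 2.69 to 3.08 CPM in the basal and 4.08 to 4.57 CPM in the insulin libraries, most of it *Cd68* (adjusted p = 0.124), while *Adgre1* was at 0 in every library and *Ptprc* at 0.399 CPM or less. The 5 myogenic markers summed to 2.70 to 2.94 CPM in the basal and 1.81 to 2.04 CPM in the insulin libraries, nearly all of it *Des* (adjusted p = 0.426), with *Myf5*, *Myod1*, and *Myog* at 0. Endothelial markers summed to 9.73 to 12.6 CPM basal and 8.47 to 14.2 CPM with insulin. Nearly all of that was *Pecam1*, with *Cdh5*, *Kdr*, *Emcn*, and *Tek* at 0.207 CPM or less. Epithelial markers summed to 0.300 to 0.569 CPM basal and 0.621 to 0.775 CPM with insulin. The part of these markers in the results was not tested. In bulk RNA, fewer cells that express a gene and less RNA per cell cannot be told apart.

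Insulin raised 33 genes in ∆CT cells past a 1.5-fold minimum and lowered none past it (edgeR's glmTreat, Benjamini-Hochberg adjusted p below 0.05), which is 0.214% and 0% of the genes tested. Passing 1.5-fold means passing glmTreat at that minimum, which a gene with a larger fitted fold can miss. Each fold change below compares 2 insulin with 3 basal libraries. At an unadjusted glmTreat p below 0.05 the genes lower numbered 33, and DESeq2 and limma also called 0 lower past 1.5-fold, while 1 was called without insulin replicate 1 and 1 without insulin replicate 2. With no filter on low counts, 62 genes were higher and 33 lower past 1.5-fold, of which 3 and 2 lie outside the filter, and 32 of the 33 higher genes were called again. Of the 33, 30 rose at least 2-fold, 12 at least 4-fold, and 6 at least 8-fold, and one entry, ENSMUSG00000116458, has the same counts as *Egr2* in every library, so they amount to 32 distinct profiles. With no minimum fold (edgeR's quasi-likelihood test), 144 genes were higher (0.935%) and 11 lower (0.0714%). In all 144 higher genes both insulin libraries lay above every basal library, where 1607 of the 15402 genes (10.4%) did so. The 144 were called from these same libraries, so their separation was largely set by the choice. Together the 32 distinct genes took 0.0558 to 0.059% of the CPM in the basal and 0.26 to 0.262% in the insulin libraries. The plot of all genes tested shows how far they stand from the rest, whose median log2 fold change was -0.01.

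**Figure D1:**
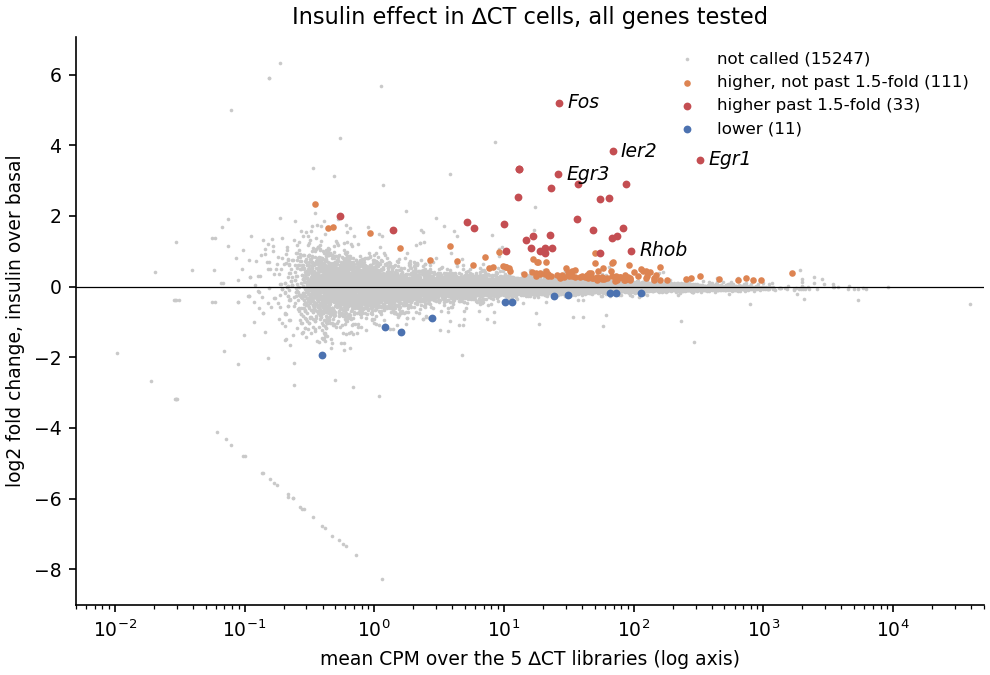
Log2 fold change of insulin over basal in ∆CT cells (vertical axis) against the mean CPM over the 5 ∆CT libraries (horizontal log axis), 1 point per gene tested, with 8 genes that have no count in these libraries not drawn. The 33 genes past 1.5-fold (red) and the 111 other higher genes (orange) lie above 0, the 11 lower genes (blue) lie between -2 and 0, uncalled genes (gray) reach 6.34 at low CPM, and of 31 uncalled genes below -3, 30 have no count in either insulin library, so that their fold is not a measured size.

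*Fos*, which encodes a partner in the AP-1 dimer and is a standard readout of ERK signaling, had the largest change of the genes called. *Fos* had 1.71, 1.30, and 2.23 CPM in the basal and 60.1 and 68.0 CPM in the insulin libraries (log2 fold change 5.20 ± 0.12 (SE), adjusted p = 7.31e-27). Its lowest insulin library was thus above its highest basal library by more than an order of magnitude. *Ier2* (chr8:84661331-84662852 in GRCm38, 1 exon), an immediate early nuclear protein, had 10.2, 10.7, and 11.9 CPM in the basal and 154 and 158 CPM in the insulin libraries (log2 fold change 3.83 ± 0.11 (SE), adjusted p = 1.45e-15). *Egr1*, a zinc finger factor with a GC-rich binding site, had 57.3, 56.6, and 67.9 and then 739 and 713 CPM (log2 fold change 3.58 ± 0.070 (SE), adjusted p = 2.77e-20). *Egr2* had 2.85, 2.40, and 3.31 and then 28.0 and 28.9 CPM (log2 fold change 3.32 ± 0.11 (SE), adjusted p = 7e-22). The 3 EGR factors rose by similar factors from unlike starting levels: per kilobase of annotated exon, *Egr1* went from 13.5 to 162 CPM, the highest level with insulin among the 33, *Egr3* from 1.41 to 12.8, and *Egr2* from 0.839 to 8.38. *Egr3* had 5.83, 6.79, and 5.95 CPM in the basal and 56.8 and 55.6 CPM in the insulin libraries (log2 fold change 3.18 ± 0.086 (SE), adjusted p = 3.61e-25). On the same per-length scale *Ier2* reached 102 CPM and *Fos* 27.2. *Nab1* and *Nab2*, corepressors that bind EGR proteins, did not pass the test, with log2 fold changes of -0.05 and 0.06, and *Egr4* did not pass the filter on low counts.

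**Figure D2:**
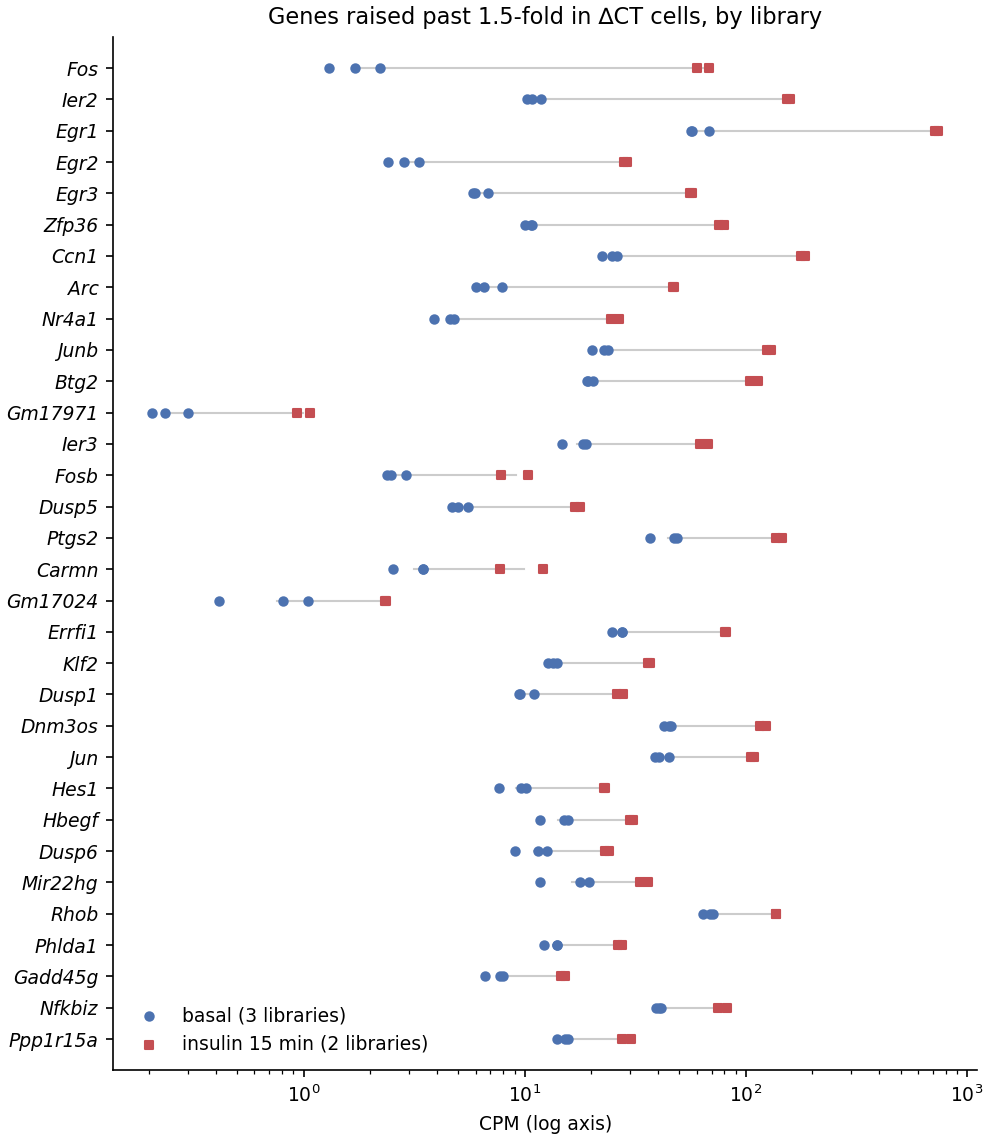
CPM (horizontal log axis) of the 32 distinct genes raised past 1.5-fold in ∆CT cells, with 1 blue point per basal library, 1 red square per insulin library, and a gray line joining the group means. In every row both insulin libraries lie to the right of all basal libraries, and the distance is longest for *Fos*, which lies at 1.30 to 2.23 CPM basal and 60.1 to 68.0 CPM with insulin.

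Promoter windows of 300 bases (250 before to 50 after the start, RefSeq, GRCm38.p6) are shown for *Fos*, *Zfp36*, *Dusp5*, and *Btg2*, since each holds letters that match an element through which ERK signaling is known to act, or a TATA box. Capitals mark, on either strand, TGACG and TATAAA in *Fos* (chr12:85473640-85473939, plus strand), CArG boxes in *Zfp36* (chr7:28379179-28379478, minus strand) and *Dusp5* (chr19:53528895-53529194, plus strand), and the cAMP response element TGACGTCA in *Btg2* (chr1:134079106-134079405, minus strand). The *Fos* matches begin 129, 66, and 33 bases before the start, the *Zfp36* box 58, the 2 adjoining *Dusp5* boxes 82 and 72, and the *Btg2* element 166.
Fos: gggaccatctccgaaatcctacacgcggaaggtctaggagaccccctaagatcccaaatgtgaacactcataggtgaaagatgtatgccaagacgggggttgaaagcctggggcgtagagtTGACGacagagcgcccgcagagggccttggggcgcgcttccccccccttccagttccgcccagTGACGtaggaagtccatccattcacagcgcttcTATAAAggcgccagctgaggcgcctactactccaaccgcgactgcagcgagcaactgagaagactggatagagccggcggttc
Zfp36: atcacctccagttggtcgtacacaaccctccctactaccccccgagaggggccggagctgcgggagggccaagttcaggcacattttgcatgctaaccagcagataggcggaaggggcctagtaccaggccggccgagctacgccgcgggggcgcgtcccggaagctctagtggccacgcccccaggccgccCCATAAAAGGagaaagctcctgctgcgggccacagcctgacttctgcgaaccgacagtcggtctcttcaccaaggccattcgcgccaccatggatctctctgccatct
Dusp5: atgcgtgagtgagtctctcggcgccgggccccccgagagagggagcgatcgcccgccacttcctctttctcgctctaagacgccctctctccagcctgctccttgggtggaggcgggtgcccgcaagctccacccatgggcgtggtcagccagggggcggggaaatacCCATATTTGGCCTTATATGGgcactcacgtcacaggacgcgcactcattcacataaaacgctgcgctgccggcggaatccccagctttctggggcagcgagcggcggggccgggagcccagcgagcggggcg
Btg2: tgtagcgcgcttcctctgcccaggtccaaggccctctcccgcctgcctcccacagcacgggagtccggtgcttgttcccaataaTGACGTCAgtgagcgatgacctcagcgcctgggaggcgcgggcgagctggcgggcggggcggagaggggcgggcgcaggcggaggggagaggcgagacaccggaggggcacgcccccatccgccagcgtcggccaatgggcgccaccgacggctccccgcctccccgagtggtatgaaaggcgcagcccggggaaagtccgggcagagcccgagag
Only 21 of the 32 genes matched a window by symbol, too few for a comparison of motif shares, which is therefore void. As a description, CArG boxes were found in a window of *Dnm3os*, *Dusp5*, *Egr2*, and *Zfp36* and TGACGTCA in *Btg2*, *Dusp1*, *Errfi1*, and *Ppp1r15a*, against 1.59% and 3.33% of the 10829 genes tested that have a window. TATAAA was in 6 of the 21 genes and 9.6% of those 10829, TGACG, which every TGACGTCA also contains, in 14 of 21 and 34.0%, and the EGR site GCGTGGGCG in 0 of 21 and 1.36%. Both strands were searched, but nothing outside the 300 bases, so a gene without a match here may have one farther away. A match is not evidence of binding.

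Of 12 measured AP-1, ATF3, and small MAF genes, 8 rose and none fell, with a list median of 0.65 against -0.01 over all genes tested. Besides *Fos* these included *Junb*, a JUN protein often counted as a brake on AP-1, with 20.1, 23.7, and 22.9 CPM in the basal and 129.9 and 124 CPM in the insulin libraries (log2 fold change 2.51 ± 0.11 (SE), adjusted p = 7.19e-12). *Jun* had 40.4, 44.9, and 38.7 and then 105 and 109 CPM (log2 fold change 1.37 ± 0.071 (SE), adjusted p = 2.82e-13). *Fosb* had 2.89, 2.50, and 2.38 and then 7.85 and 10.4 CPM (log2 fold change 1.82 ± 0.16 (SE), adjusted p = 5.08e-10), and its insulin libraries lay farther apart than those of *Jun* or *Junb*. *Junb* and *Jun* both overlap an annotated gene on the other strand, and whether the counting used strand is not given in the sources used here. *Fosl1* (0.98, adjusted p = 8.61e-05) and the stress factor *Atf3* (1.16, adjusted p = 3.33e-05) rose without passing 1.5-fold, the latter with 2.43 to 2.85 CPM basal and 4.60 to 6.88 CPM with insulin. *Mafk* and *Fosl2* rose by 0.31 and 0.17. *Jund*, *Maff*, *Mafg*, and *Batf3* did not pass the test, with log2 fold changes of 0.21, 0.15, 0.13, and 0.18.

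Among 20 other early transcription factors of the NR4A, KLF, and related families 6 rose and 14 did not pass the test (list median 0.13). *Nr4a1*, an orphan nuclear receptor, had 4.79, 3.90, and 4.61 CPM in the basal and 26.8 and 24.5 CPM in the insulin libraries (log2 fold change 2.53 ± 0.12 (SE), adjusted p = 2.96e-18). *Klf2*, a Krüppel-like factor, had 13.4, 13.9, and 12.7 and then 36.1 and 36.9 CPM (log2 fold change 1.45 ± 0.073 (SE), adjusted p = 3.98e-17). *Klf6* rose less but with a small error, with 125 to 140.0 CPM basal and 196 to 197 CPM with insulin (log2 fold change 0.56 ± 0.043 (SE), adjusted p = 5.23e-12). Within a family the response was thus uneven: *Nr4a2*, at 6.88 to 7.34 CPM basal, gave a log2 fold change of 0.12 and *Nr4a3* of 0.37, neither past the test. The other members that rose were *Srf* (0.44), the factor that binds CArG boxes, *Myc* (0.48), and the circadian repressor *Bhlhe40* (0.26). None of 15 measured cytoskeletal targets of SRF and its cofactor MRTF rose or fell, with a list median of 0.00 and *Actb* at 0.07.

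Feedback inhibitors of ERK signaling rose in 6 of 16 measured genes. *Dusp5*, a nuclear phosphatase that acts on ERK and whose promoter is printed above, had 4.98, 5.54, and 4.71 CPM in the basal and 16.8 and 17.8 CPM in the insulin libraries (log2 fold change 1.77 ± 0.099 (SE), adjusted p = 1.21e-15). *Dusp1*, a phosphatase of ERK, JNK, and p38, had 9.44, 9.54, and 11.0 and then 26 and 27.7 CPM (log2 fold change 1.43 ± 0.082 (SE), adjusted p = 2.26e-15), and it too overlaps a gene on the other strand. *Dusp6*, the cytoplasmic ERK phosphatase, had 12.6, 11.5, and 9.06 and then 24 and 23.1 CPM (log2 fold change 1.09 ± 0.10 (SE), adjusted p = 3.09e-09). All 3 phosphatases at least doubled, while *Dusp4*, *Dusp7*, *Dusp8*, *Dusp10*, *Dusp14*, and *Dusp16* did not pass the test, with changes from -0.14 to 0.39. *Errfi1*, an inhibitor of EGF receptor family kinases, had 27.5, 27.4, and 24.7 and then 80.5 and 81.5 CPM (log2 fold change 1.61 ± 0.071 (SE), adjusted p = 2.77e-17). *Spry2* (0.45) and *Spry1* (0.39), Sprouty inhibitors of Ras signaling, rose by less than 1.5-fold.

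Of 10 mRNA decay factors 4 rose and none fell. *Zfp36* (chr7:28376784-28380253, minus strand), or tristetraprolin, which binds AU-rich elements and hastens decay of early transcripts, had 10, 10.7, and 10.8 CPM in the basal and 75.9 and 79.8 CPM in the insulin libraries (log2 fold change 2.89 ± 0.069 (SE), adjusted p = 7.31e-27). *Btg2*, an antiproliferative protein that recruits the CCR4-NOT deadenylase, had 19.3, 20.3, and 19.0 and then 105 and 113 CPM (log2 fold change 2.48 ± 0.050 (SE), adjusted p = 1.31e-28), the smallest adjusted p of any gene in the comparison. The paralogs of *Zfp36* rose too but by less, *Zfp36l1* by 0.41 and *Zfp36l2* by 0.44. *Btg1*, *Btg3*, *Tob1*, and *Tob2* did not pass the test, with changes from -0.02 to 0.15. *Zfp36* overlaps a gene on the other strand.

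In the list of IER, GADD45, PLK, and other stress early genes, 11 of 18 rose, 7 of them past 1.5-fold. *Arc*, a capsid-like protein best known from synapses, had 6.54, 5.99, and 7.87 CPM in the basal and 47.2 and 46.7 CPM in the insulin libraries (log2 fold change 2.79 ± 0.10 (SE), adjusted p = 5.39e-21). *Ier3*, a regulator of survival signaling, had 18.9, 18.3, and 14.8 and then 67.5 and 62.1 CPM (log2 fold change 1.90 ± 0.072 (SE), adjusted p = 2.01e-20). *Rhob*, a small GTPase, had 64.2, 68.7, and 71.1 and then 137 and 137 CPM (log2 fold change 1.01 ± 0.057 (SE), adjusted p = 2.77e-14). *Rhob* had the highest basal level of the 33 per kilobase of exon, 28.9 CPM, and a doubling took it to 58.4. *Phlda1*, *Gadd45g*, and *Ppp1r15a*, the last a phosphatase subunit that reverses the integrated stress response, rose by 1.01, 1.0, and 0.95. *Gadd45a* and *Gadd45b* had log2 fold changes of -0.09 and -0.21 and did not pass the test. *Sgk1*, a kinase downstream of PI3K, had 30.4 to 39.8 CPM basal and 70.1 to 70.7 CPM with insulin (log2 fold change 0.95 ± 0.11 (SE), adjusted p = 1.35e-05) and rose without passing 1.5-fold, and *Plk3* (0.68), *Mcl1* (0.48), and *Plk2* (0.44) rose by less.

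Secreted and membrane proteins were also among the genes called. *Ccn1* (chr3:145646976-145649981, minus strand), a matricellular protein, had 26.2, 24.8, and 22.4 CPM in the basal and 177 and 185 CPM in the insulin libraries (log2 fold change 2.89 ± 0.077 (SE), adjusted p = 8.09e-19). *F3*, tissue factor, which starts coagulation, had 79.7, 75.6, and 74.0 and then 116 and 116 CPM (log2 fold change 0.60 ± 0.042 (SE), adjusted p = 6.95e-13). These were the only ones called of 14 CCN and YAP target genes, and *Ccn2*, at 15.8 to 18.6 CPM basal and 23.8 to 24.4 CPM with insulin, did not pass the test (adjusted p = 0.0834). *Ptgs2*, the inducible cyclooxygenase, had 47.1, 49.0, and 36.8 and then 145 and 136 CPM (log2 fold change 1.66 ± 0.081 (SE), adjusted p = 3.48e-12). *Hbegf*, an EGF receptor ligand, had 15.1, 15.7, and 11.7 and then 30.0 and 30.7 CPM (log2 fold change 1.10 ± 0.086 (SE), adjusted p = 1.1e-11). In the list of NF-kB feedback genes, chemokines, and cytokines, 3 of 15 rose: *Ptgs2*, the nuclear IkB protein *Nfkbiz* (0.95), and the cytokine *Lif* (1.09, with 0.828 to 1.33 CPM basal and 2.12 to 2.53 CPM with insulin). *Nfkbia* and *Tnfaip3*, the usual early targets of NF-kB, had log2 fold changes of 0.03 and 0.02 and did not pass the test.

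*Hes1*, a repressor of the Notch pathway that also responds to other signals, had 9.63, 10.1, and 7.66 CPM in the basal and 22.9 and 23.0 CPM in the insulin libraries (log2 fold change 1.33 ± 0.091 (SE), adjusted p = 3e-13). With *Id1* (0.85, adjusted p = 4.96e-05) and *Id3* (0.70, adjusted p = 1.63e-07), inhibitors of bHLH factors, it made up the 3 of 10 Notch, HES, HEY, and ID genes that rose. *Jag1*, *Notch1*, and *Notch2* gave 0.08, 0.07, and -0.06 and did not pass the test.

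Transcripts annotated as noncoding, 1 pseudogene among them, accounted for 5 of the 33. *Dnm3os*, an antisense transcript of *Dnm3* that hosts microRNAs, had 45.7, 45.0, and 42.8 CPM in the basal and 124 and 116 CPM in the insulin libraries (log2 fold change 1.43 ± 0.057 (SE), adjusted p = 1.07e-19). *Mir22hg* had 17.7, 19.4, and 11.7 and then 36.0 and 33.3 CPM (log2 fold change 1.08 ± 0.13 (SE), adjusted p = 1.98e-05). *Carmn*, a lincRNA that also hosts microRNAs, had 3.46, 2.55, and 3.47 and then 7.75 and 12.1 CPM (log2 fold change 1.66 ± 0.25 (SE), adjusted p = 0.00047). The errors of these transcripts were uneven: the SE of *Carmn* was more than 4 times that of *Dnm3os*, and the groups do not overlap in either. *Gm17024*, which lies within another gene on the same strand, had 0.806, 1.05, and 0.414 and then 2.32 and 2.35 CPM, and the pseudogene *Gm17971* had 0.237, 0.300, and 0.207 and then 0.930 and 1.06 CPM. Since *Dnm3os* overlaps a gene on the other strand and *Mir22hg*, *Gm17024*, and *Gm17971* overlap one on their own strand, their counts are uncertain.

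Of 24 measured receptor substrates, adaptors, and members of PI3K-AKT signaling, a list without the receptor itself, 0 rose and 0 fell, with changes from -0.12 to 0.16. *Irs1*, the main docking protein, had 350.1, 350.4, and 335 CPM in the basal and 322 and 329 CPM in the insulin libraries (log2 fold change -0.09 ± 0.041 (SE), adjusted p = 0.489). *Irs2* had a log2 fold change of 0.07 (adjusted p = 0.727). *Igf1r*, inactivated with Cre in the parent DKO cells, had 29.9 to 31.1 CPM basal and 31.2 to 32.3 CPM with insulin (log2 fold change 0.07, adjusted p = 0.776). The study reports no *Igf1r* mRNA in DKO cells by qPCR, and whether these reads come from the inactivated allele was not tested. Of 18 FOXO targets, a family that AKT represses by holding FOXO in the cytoplasm, 3 rose and none fell, with a median of -0.02. Those 3 were *Insr*, from 81.8, 78.8, and 74.6 to 96.4 and 99.7 CPM (log2 fold change 0.32 ± 0.049 (SE), adjusted p = 5.16e-05), *Txnip* (0.24), which curbs glucose uptake, and *Pdk4* (0.18), which inhibits pyruvate dehydrogenase. *Insr* stood at 23.8 CPM in DKO cells, and which *Insr* reads come from the added receptor was not tested. Its rise is therefore not shown to be that of the cells' own gene. Of 18 SREBP, lipid, and glucose metabolism genes, *Insig1*, which retains SREBP in the endoplasmic reticulum, rose by 0.25 (adjusted p = 0.000112) and the others did not pass the test, with *Srebf1* at -0.14. Of 13 heat shock and integrated stress response genes, *Dnajb1* (0.67), *Ddit4* (0.54), *Ddit3* (0.45), and *Atf4* (0.22) rose, and 10 reference genes had a median of -0.07 with 0 called. The plot of the gene lists sets these side by side. All lists were chosen with results of these data known, so their counts are descriptions.

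**Figure D3:**
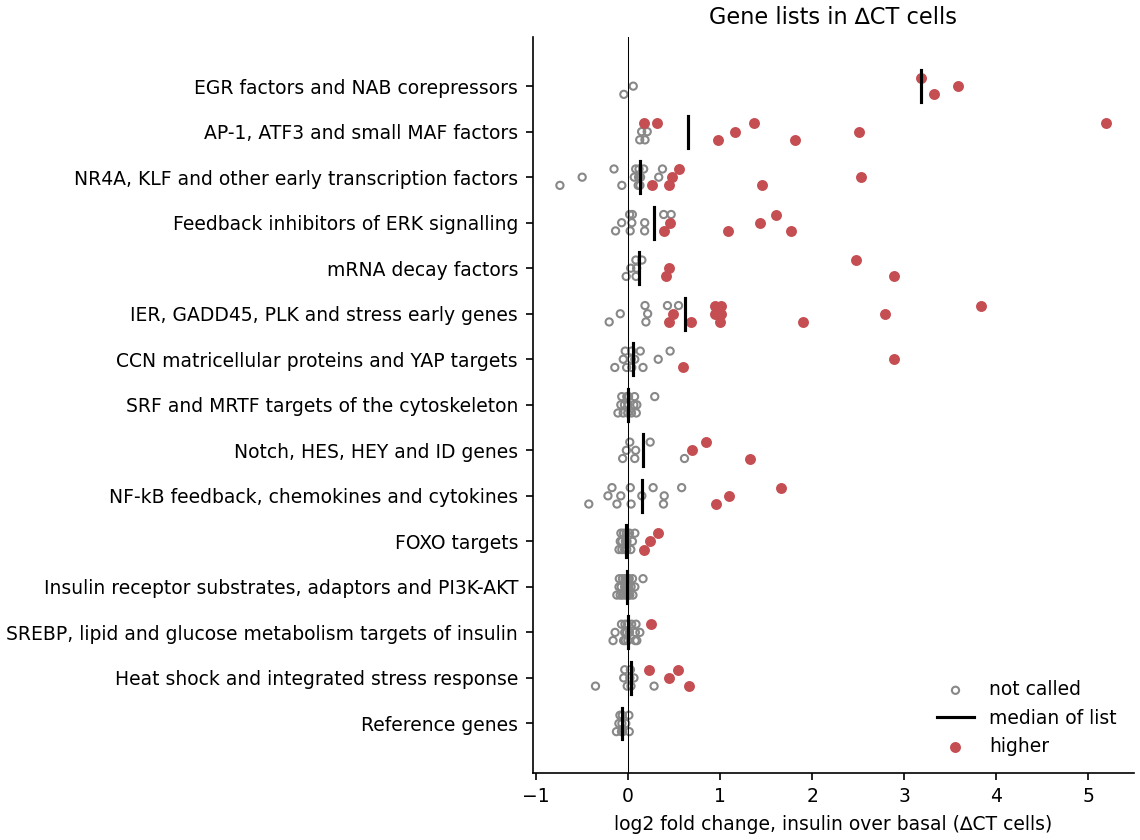
Log2 fold change of insulin over basal in ∆CT cells (horizontal axis) for each measured member of 15 gene lists (rows), with filled red points for genes called higher with no minimum fold, open gray points for genes not called, and a black bar at the median of the list. Red points extend past 1 in the first rows, from EGR to NF-kB with the exception of the SRF and MRTF targets, and all members of the PI3K-AKT and reference lists lie near 0.

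A further 111 genes rose with no minimum fold but did not pass glmTreat at 1.5-fold, although some had a change as large as genes of the 33. The median log2 fold change of the 111 was 0.32, with a range from 0.16 to 2.33. Those with the smallest adjusted p included *F3*, *Klf6*, *Mcl1*, *Zfp36l1*, *Dnajb1*, *Ddit3*, and *Ccnl1*. *Ccnl1*, a cyclin of the splicing-linked CDK complexes, had 56.2, 53.7, and 56.4 CPM in the basal and 87.0 and 88.5 CPM in the insulin libraries (log2 fold change 0.66 ± 0.050 (SE), adjusted p = 3.48e-12). This count depends on single libraries: of the 144 higher genes, 89 were called without insulin replicate 1, where 93 were called in all, and 69 were called in each of the 5 runs that leave out 1 ∆CT library. Of the 33 past 1.5-fold, 26 were called in each of those runs, and *Phlda1*, *Gadd45g*, *Ppp1r15a*, *Mir22hg*, *Gm17024*, *Carmn*, and *Gm17971* were lost in at least one. A fit of the 5 ∆CT libraries alone called 95 genes higher with no minimum fold, 84 of them among the 144, and 32 past 1.5-fold, 29 of them among the 33.

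Few genes were lower with insulin. The smallest adjusted p belonged to *Nr2c2*, an orphan nuclear receptor, with 117, 120.3, and 119 CPM in the basal and 106 and 105 CPM in the insulin libraries (log2 fold change -0.17 ± 0.034 (SE), adjusted p = 0.00272). *Gm17249* had 2.61, 1.70, and 1.97 and then 0.981 and 0.754 CPM (log2 fold change -1.28 ± 0.25 (SE), adjusted p = 0.00274). The next were AC166575.1 (-0.88), the dynein light chain *Dynlt1a* (-0.43), the zinc finger gene *Zfp322a* (-0.25), 4632415L05Rik (-0.27), *BC030343* (-1.15), and the ubiquitin ligase *Rnf187* (-0.19). These calls were not stable: none of the 11 was called in all 5 runs that leave out a ∆CT library, with 7 genes lower without insulin replicate 1 and 5 without insulin replicate 2. DESeq2 called 6 genes lower, 2 of them among the 11, and a fit of the 5 ∆CT libraries alone called 3, of which 0 are among the 11.

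The genes raised past 1.5-fold were compact. Of the 33, 32 have an annotation (GENCODE M21, GRCm38), and these spanned a median of 4.09 kb with 2.5 exons, against 20.3 kb and 6 exons over 15202 annotated genes tested. Spans under 10 kb were found in 25 of the 32 (78.1%) and in 30.6% of all. The 109 annotated genes that rose without passing 1.5-fold lay between, with a median of 9.75 kb and 50.5% under 10 kb. Among the exceptions, *Dusp1* spans 56.5 kb as annotated and *Nfkbiz* 27.5 kb. These are descriptions of the genes called, with no test.

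Whether the tail matters for this response was addressed by the difference of the insulin effects in ∆CT and IR cells, each taken against its own basal libraries. Of the 33 genes, 32 were also called higher in IR cells, all but *Gm17971*, and 215 of the 15402 genes tested (1.4%) were called higher there. Past 1.5-fold 32 were called too, where 33 genes (0.214%) were. The median log2 fold change was 1.66 in ∆CT and 1.64 in IR cells. The difference passed the test for 1 of 15402 genes (0.00649%), *Egr1*, with a log2 difference of 0.77 (95% interval 0.58 to 0.96, adjusted p = 0.000633). The count was 2 without ∆CT basal replicate 2 or IR basal replicate 3 and 3 without ∆CT insulin replicate 2, with *Egr1* among them each time. With no filter on low counts it was 141, *Egr1* included and 13 of them outside the filter, so the number of genes that differ from IR depends on that filter. At an unadjusted p below 0.05 there were 566, of which 10 are among the 33. Next came *Egr3*, at 0.63 (95% interval 0.39 to 0.88, adjusted p = 0.0597), followed at a distance by the other genes, such as *Fos* at 0.79 (95% interval 0.41 to 1.17, adjusted p = 0.975) and *Ier2* at 0.47 (95% interval 0.13 to 0.81, adjusted p = 1). Among the rest the intervals were narrow for abundant genes, as for *Btg2* at 0.01 (95% interval -0.13 to 0.15, adjusted p = 1) and *Zfp36* at -0.01 (95% interval -0.21 to 0.19, adjusted p = 1), and wide for *Carmn*, at -0.78 (95% interval -1.52 to -0.04, adjusted p = 1). The median half-width of the interval over the 33 was 0.25, before any adjustment over genes, and a p that misses the threshold does not show that the receptors act alike.

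For *Egr1* the lines stood apart mainly before insulin. Its basal libraries held 56.6 to 67.9 CPM in ∆CT and 99.1 to 118 CPM in IR cells, with 100.3 to 112 CPM in DKO cells, whereas with insulin they held 713 to 739 and 762 to 774 CPM. *Egr3* was likewise at 5.83 to 6.79 CPM in basal ∆CT and 9.78 to 10.5 CPM in basal IR libraries, and at 55.6 to 56.8 and 59.2 to 60.6 CPM with insulin. *Fos* was at 1.30 to 2.23 CPM in basal ∆CT and 3.46 to 5.0 CPM in basal IR libraries, and its level with insulin was also lower in ∆CT cells, 60.1 to 68.0 against 89.0 to 96.6 CPM. A larger fold in ∆CT cells thus went with a lower level in both states for these 3 genes. Over the 32 distinct genes, every ∆CT library was below every IR library for 14 in the basal state and above for 0, where 18.8% and 14.5% of all genes tested were so. With insulin the counts were 13 below and 7 above, where 25.6% and 20.1% of all genes were so. The 32 were chosen for their rise in these ∆CT libraries, which favors a low basal and a high insulin level there. These counts are therefore a description. The levels were not tested between the lines, which are separate transductions.

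Against the kinase-dead receptor the response was larger in ∆CT cells for most of the genes. The insulin effect differed between ∆CT and K1030R cells for 64 genes (0.416%), 30 of them among the 33, and each of the 30 was larger in ∆CT cells. The 33 were chosen for their rise in these ∆CT libraries, so that direction was largely set by the choice and is a description. In K1030R cells 6 of the 33 rose with no minimum fold, where 17 of the 15402 genes tested (0.11%) did, none passed 1.5-fold, where 0 genes (0%) did, and the median log2 fold change was 0.17. The largest differences were *Fos* at 4.89 (95% interval 4.38 to 5.39, adjusted p = 4.26e-16), *Egr2* at 3.50 (95% interval 3.12 to 3.87, adjusted p = 4.26e-16), *Ier2* at 3.40 (95% interval 3.02 to 3.79, adjusted p = 1.07e-10), and *Egr3* at 3.32 (95% interval 3.04 to 3.61, adjusted p = 5.3e-19). Among the 33, *Carmn*, *Gm17024*, and *Gm17971* did not pass the test of the difference. Of the 33, the largest changes in K1030R cells were those of *Ccn1*, *Dusp1*, and *Dnm3os*. For *Ccn1* the log2 fold change was 2.89 in ∆CT, 2.61 in IR, 0.93 in JMO, and 0.67 in K1030R cells, and for *Dusp1* it was 1.43 in ∆CT, 1.53 in IR, 1.10 in JMO, and 0.66 in K1030R cells.

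Against JMO, which has no kinase domain, 40 genes differed (0.26%), 27 of them among the 33, and each of the 27 was larger in ∆CT cells. Here too the direction was largely set by the choice of the 33. In JMO cells 17 of the 33 rose with no minimum fold, where 51 of the 15402 genes tested (0.331%) did, and 6 past 1.5-fold, where 6 (0.039%) did. The changes of the 33 in JMO cells ran from 0.06 to 1.17, with a median of 0.36. The largest differences were *Fos* at 4.03 (95% interval 3.66 to 4.39, adjusted p = 1.18e-17), *Egr3* at 3.12 (95% interval 2.88 to 3.37, adjusted p = 7.99e-20), and *Egr2* at 2.80 (95% interval 2.47 to 3.12, adjusted p = 4.82e-15). For *Egr3* the change was 3.18 in ∆CT, 2.55 in IR, 0.06 in JMO, and -0.14 in K1030R cells. *Dusp1* and *Dnm3os* were nearest between the lines: *Dnm3os* gave 1.43 in ∆CT, 1.46 in IR, 1.16 in JMO, and 0.61 in K1030R cells, and its difference from JMO was 0.27 (95% interval 0.11 to 0.43, adjusted p = 0.343). For *Dusp1* that difference was 0.33 (95% interval 0.11 to 0.56, adjusted p = 0.772). The plot of the 4 lines shows the changes of IR next to those of ∆CT and the changes of the other 2 lines at 1.17 or less. Of the 11 genes lower in ∆CT cells, 4 were called lower in IR, 1 in K1030R, and 1 in JMO cells, where 73 (0.474%), 7 (0.0454%), and 5 (0.0325%) of the 15402 were.

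**Figure D4:**
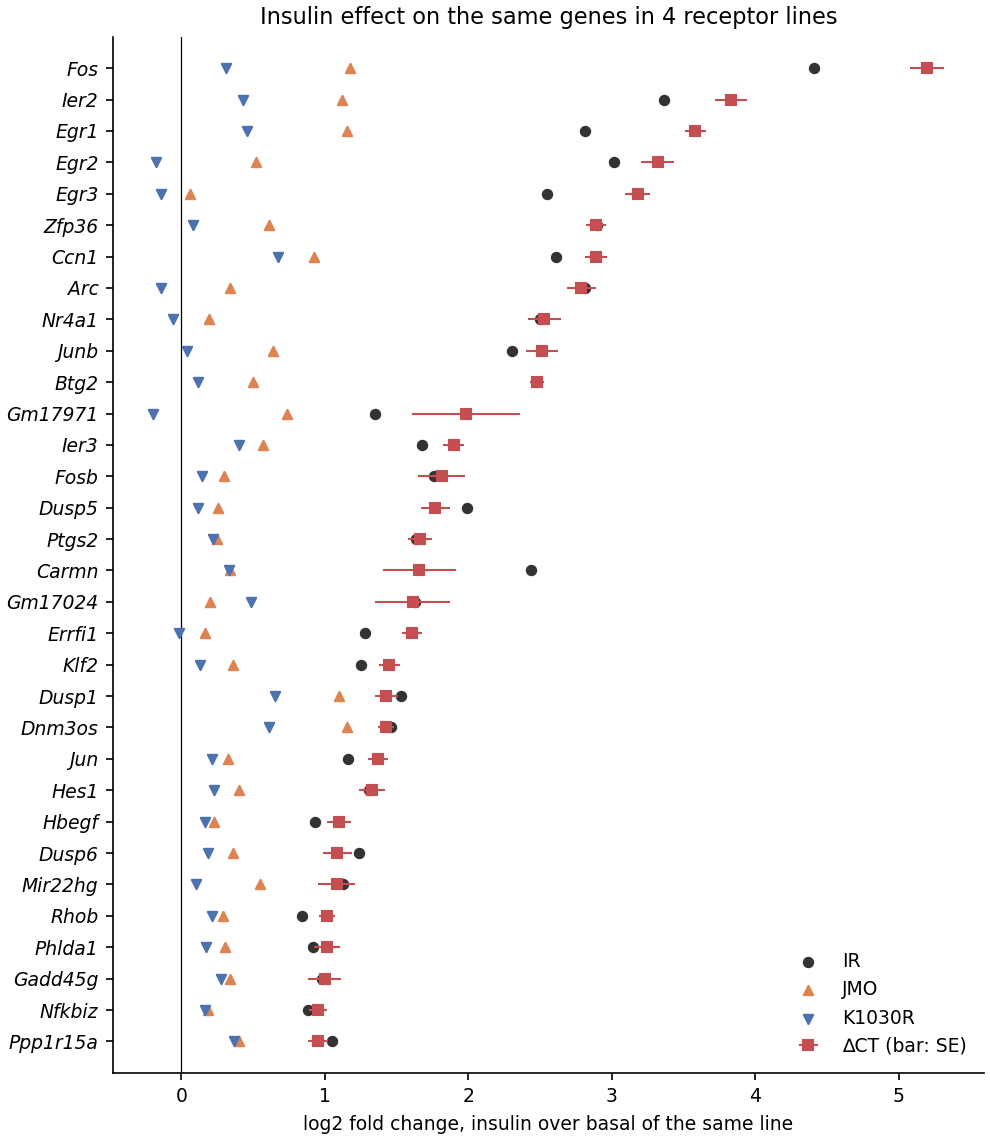
Log2 fold change of insulin over the basal libraries of the same line (horizontal axis) for the 32 distinct genes raised past 1.5-fold in ∆CT cells (rows), with red squares for ∆CT (bars, SE), black circles for IR, orange triangles for JMO, and blue triangles for K1030R. IR and ∆CT points lie close together except for *Carmn*, *Gm17971*, and the top of the plot, where *Fos* is at 5.20 and 4.41, while JMO and K1030R points lie below 1.2.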

How the data were processed

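Per the labels and the study's methods, the authors selected mRNA on oligo-dT beads, sequenced 100-base reverse-stranded single-end reads, trimmed them with fastp, pseudoaligned them to mouse transcripts of Ensembl release 98 with kallisto, and used tximport to reach genes. The deposited values are expected counts for each gene and library, unfiltered and unscaled, which were rounded here. Whether strand entered the assignment is not given in the sources used here. After the filter on CPM, TMM factors and group means entered a robust quasi-likelihood model of all 26 libraries (edgeR 4.0.16, R 4.3.3), with a biological coefficient of variation of 4.44%. Calls past 1.5-fold used glmTreat and all other adjusted p-values glmQLFTest, with Benjamini-Hochberg adjustment over 15402 genes. SE is that of the fitted log2 fold change. DESeq2 1.42.0 and limma 3.58.1 were alternatives. Named genes were the 24 with the largest change past 1.5-fold, the 8 with the smallest adjusted p among the other higher and among the lower genes, list members past the test with up to 4 others, and the 6 with the smallest adjusted p for each difference between lines. Other genes were named after their values were seen, and some genes are not reported here. The members and lists were chosen with earlier results of these data known. The procedure was also run on counts simulated with a variation of 4.44% for every gene. Real genes differ in their spread, so that run is no evidence for the calls made here.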

Additional observations from a re-analysis of the deposited data

Results flagged for a closer look

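The insulin effect differed between receptor lines by a test of the difference itself for 1 gene between ∆CT and IR, 64 between ∆CT and K1030R, and 40 between ∆CT and JMO cells. The gene that differed from IR was *Egr1*, with a log2 difference of 0.77. Against K1030R the log2 differences with the smallest adjusted p were 2.36 for *Btg2*, the deadenylase adaptor, 2.81 for *Zfp36*, which promotes mRNA decay, 3.32 for *Egr3*, 4.89 for *Fos*, 3.50 for *Egr2*, and 3.13 for *Egr1*. Against JMO they were 1.98 for *Btg2*, 3.12 for *Egr3*, 2.28 for *Zfp36*, 4.03 for *Fos*, 2.80 for *Egr2*, and 2.80 for ENSMUSG00000116458, whose counts are those of *Egr2*. All were larger in ∆CT cells.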

How the results depend on the processing

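With RLE scaling, unrounded counts, or a filter of at least 10 counts in at least 2 libraries, every count of calls stayed within 1.5 times its value. Without a filter on low counts there were 62 genes higher and 33 lower past 1.5-fold, 282 higher and 117 lower with no minimum fold, and 141, 213, and 214 whose effect differed from IR, K1030R, and JMO, and the cause was not tested. DESeq2 gave 6 genes lower and an adjusted p below 0.01 gave 2. A fit of only the groups compared gave 95 higher and 3 lower with no minimum fold, and 2 that differed from IR. A minimum of 2-fold left 21 higher, and one of 1.2-fold gave 51 higher and 1 lower. The replicate block gave 27 lower in place of 11, 157 higher, and 31 higher past 1.5-fold. Deviations of libraries of the same number had a median correlation of 0.0189 (-0.2144 to 0.1583), against -0.0099 (-0.2038 to 0.2264) for different numbers. The labels do not say whether libraries of the same number shared a culture or batch, and these correlations cannot decide it.

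Leaving out 1 library gave 28 to 31 higher and 0 to 1 lower past 1.5-fold, 93 to 132 higher and 5 to 16 lower with no minimum fold, 1 to 3 that differed from IR, 50 to 63 from K1030R, and 34 to 40 from JMO. Of the values for named genes 9 changed sign, all in genes not called. *Pecam1* ran from -0.45 to 0.31, with 0.0377 without basal replicate 1 and 0.0054 without basal replicate 2. *Fabp4* ran from -0.28 to 0.28, with -0.0959 without basal replicate 1. *Il6* ran from -0.0291 to 0.76, *Gadd45a* from -0.20 to 0.0336, *Actg2* from -0.36 to 0.70, and *Hspa1a* from -0.28 to 0.17. With 2 insulin libraries and 1 line per receptor, small changes and low genes are the least certain.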

Other observations

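Genes of RNA processing, chosen after their values were seen, were among those that rose in ∆CT cells without passing 1.5-fold. *Srsf5*, a splicing factor, had 300.2, 310.2, and 277 CPM in the basal and 377 and 354 CPM in the insulin libraries (log2 fold change 0.30, adjusted p = 0.000302). The RNA helicase *Ddx5* had 916, 906, and 888 CPM and then 1055 and 1008 CPM (0.19, adjusted p = 0.000418). *Ccnl2*, the paralog of *Ccnl1*, rose by 0.30 and the splicing kinase *Clk2* by 0.26. The same genes gave 0.32, 0.23, 0.34, and 0.29 in IR cells, in the order *Srsf5*, *Ddx5*, *Ccnl2*, *Clk2*, each past the test.

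Secreted and signaling proteins outside the gene lists also rose. *Socs3*, an inhibitor of cytokine and insulin receptor signaling, had 15.0, 15.6, and 13.8 CPM in the basal and 25.1 and 22.8 CPM in the insulin libraries (log2 fold change 0.69, adjusted p = 3.54e-07). *Vegfa*, the angiogenic factor, rose by 0.34, and the cytokine *Clcf1*, which overlaps another gene on its strand, by 0.55. Neither group was tested as a set.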
